A study of Mus musculus with 15 samples.

Results

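The matrix metalloproteinases (Mmp), their tissue inhibitors (Timp), the Adamts and Adamts-like proteins and the lysyl oxidases were followed through 3 groups of mouse liver tumors measured on 1-colour Agilent arrays, 1 array per tumor. The members were all probes that were no controls and whose gene symbol began with Mmp, Timp, Adamts or Loxl followed by a number, or with Adamtsl, or was Lox. They numbered 82 probes of 56 genes, among 55681 probes and 24336 gene symbols on the array, 24335 of which had a representative probe. A gene was represented by the probe with the highest mean signal over the 15 arrays, and 24 of the 56 genes had several probes.

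The control group was 5 hepatocellular carcinomas (HCC) from 4 p53f/f mice, which carry floxed Trp53 alleles that were not deleted, and mouse 3717 gave 2 of these tumors. The second group was 5 HCC from 5 p53LKO mice, in which Trp53 was deleted in the liver. The third was 5 tumors from 5 p53LKO mice that carry the label ICC, the usual abbreviation of intrahepatic cholangiocarcinoma. All mice were injected intraperitoneally with CCl4, 0.5 µl per g body weight in olive oil, over 16 weeks. The interval was 3 days by the labels, while the methods speak of 2 injections a week. The mice had a C57BL/6J background, and those of the HCC comparison were males. The sex of mouse 3977, which gave only an ICC, the Cre line and the age of each mouse at collection are not given in the sources used here. The paper gives ages of sacrifice for the study as a whole. It reports that tumors formed later in p53f/f mice, which were followed to a greater age. The arrayed p53f/f mice may thus have been older, and age and genotype cannot be told apart in the HCC comparison. Of the ICC mice, 4 also gave an HCC of the second group (mice 3731, 3733, 3976 and 5283). RNA came from whole tumor tissue, so that for every gene below, more cells of a type and more RNA per cell cannot be told apart.

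Matrix metalloproteinases are zinc enzymes, mostly secreted as inactive precursors, that cut collagens, laminins and other proteins of the extracellular matrix, and the Timp proteins bind and block them. The Adamts enzymes are secreted relatives. Some of them remove the amino-terminal propeptides of fibrillar collagens and others cut proteoglycans. Lysyl oxidases oxidize lysines of collagen and elastin so that the fibers become cross-linked. In the injured liver, hepatic stellate cells that turn into myofibroblasts are known for making fibrillar collagen and Timp1, and repeated CCl4 injection is a widely used way of making mouse liver fibrotic.

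All levels below are log2 signals relative to the 75th percentile of the array, so that 0 is the level of a probe at that percentile, and they compare tumors for 1 probe but not 1 gene with another. A gene was tested if the scanner software called its probe well above background in 3 or more of the 5 tumors of either group. A difference was counted if limma gave an adjusted p under 0.05 (Benjamini-Hochberg over all probes tested) and the fold change was over 2. Values per tumor are listed in a fixed order of mice: 3681, 3715, 3716, 3717 and 3717 (second tumor) for p53f/f HCC, 3976, 5283, 3731, 3733 and 3975 for p53LKO HCC, and 3731, 3733, 3976, 3977 and 5283 for ICC. The HCC comparison and the ICC comparison share the 5 p53LKO HCC arrays, so that their results are not independent. ICC and p53f/f HCC were not tested against each other, because they differ in genotype, tumor type and place on the slide.

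Of all probes, 55.1% to 70.1% stood well above background in p53f/f HCC, 37.0% to 62.1% in p53LKO HCC and 42.5% to 47.0% in ICC. All 7 arrays in lower rows of the 2 slides lay at 37.0% to 47.0% and all 8 in upper rows at 55.1% to 70.1%. The lower rows held the 5 ICC and the p53LKO HCC of mice 3976 and 5283. The lowest signal well above background lay at -5.17 to -3.67 on p53f/f HCC arrays and -5.15 to -2.13 on p53LKO HCC arrays. On ICC arrays it lay at -2.89 to -2.37. The only probe named Trp53 ranged from -1.27 to -0.68 in p53f/f HCC, from -3.86 to -2.75 in p53LKO HCC and from -4.19 to -2.31 in ICC, so the groups followed their genotype labels, although the array file places this probe on chromosome 17 and not at the gene itself. Of 8 hepatocyte markers, 0 were called between the HCC groups by limma (2 had an adjusted p under 0.05 with less than a 2-fold difference, and 2 an unadjusted p under 0.05 by the exact Mann-Whitney test), and 6 were lower in ICC than in p53LKO HCC. Of the biliary markers reported here, 4 were higher in ICC (Spp1 by 4.73 and Krt19 by 4.67 on the log2 scale, and Epcam at least 94.0-fold and Krt7 at least 4.85-fold, as 0 and 1 of 5 p53LKO HCC arrays were well above background for them), while Sox9 and Cldn4 did not pass.

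Of the 56 genes, 20 were well above background on all 15 arrays and 7 on 0 arrays. The HCC comparison tested 39 of them and the ICC comparison 41, with 38 in both and 14 in neither. The genes tested in neither include Mmp9, the second gelatinase beside Mmp2, which was well above background on 2 of 15 arrays, both p53LKO HCC. They also include the collagenases Mmp1a, Mmp1b and Mmp8.

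In p53LKO HCC, 11 of the 39 tested member genes were higher than in p53f/f HCC, 1 was lower (Adamts12), and 27 passed in neither direction. The share called was 30.8% of the members, against 16% of the 17847 genes tested in this comparison. The members' calls were mostly upward, 28.2% of them against 5.19% of all genes, while 2.56% of the members against 10.8% of all genes were lower. The median log2 fold change was 0.45 over the members and 0.06 over all genes. The groups did not overlap for 6 members (15.4%), against 19.5% of all genes. The count of higher members was 6 with the upper rows of the slides alone (5 p53f/f against 3 p53LKO HCC), 7 with the row as a block, 5 with the slide as a block, and 21 when arrays were scaled to the spike-in probes, which moved the median of all genes to 0.80. Leaving out the p53f/f HCC of mouse 3681, or the first tumor of mouse 3717, left 5 higher members, and leaving out the p53LKO HCC of mouse 3731 or 3975 left 6. The count of lower members was 0 without the p53LKO HCC of mouse 3975, and it was 2 without the p53f/f HCC of mouse 3715 or 3716 or the p53LKO HCC of mouse 3976. Timp1, Mmp2, Loxl2 and Adamts4 were called higher whichever tumor was left out. Slide 1 held 4 of 5 p53f/f HCC and slide 2 held 3 of 5 p53LKO HCC, and with the slide as a block these 4 genes and Mmp15 were the 5 that passed. With both tumors of mouse 3717 averaged, 9 members were higher and 0 lower, since Mmp15, Adamts13 and Adamts12 no longer passed.

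Of the 41 member genes tested between ICC and p53LKO HCC, 17 were higher in ICC, 8 were lower and 16 passed in neither direction. The share called was 61.0%, against 28.4% of all 16962 genes tested, and 41.5% of the members were higher against 13.2% of all genes, while 19.5% were lower against 15.2%. The median log2 fold change was 0.65 over the members and -0.17 over all genes. The groups did not overlap for 15 members (36.6%), against 30.8% of all genes. With the mouse as a replicate block, which pairs the HCC and ICC of 4 mice, 16 members were higher and 6 lower, and with the lower rows alone (5 ICC against 2 HCC) 15 were higher and 5 lower. Of the 25 calls, 21 passed whichever tumor was left out. Of the 17 higher members, 4 (Lox, Mmp3, Mmp10 and Mmp12) were well above background on fewer than 3 p53LKO HCC arrays, and of the 8 lower members 3 (Timp4, Mmp25 and Mmp27) on fewer than 3 ICC arrays, so that these calls compare a measured level with one mostly at background. Among the 31 members well above background on 3 or more arrays of both groups, 41.9% were higher and 16.1% lower, against 12.8% and 14.8% of all such genes. Among these 5 lower members is Adamts8, whose probes disagree in direction.

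**Figure D1:**
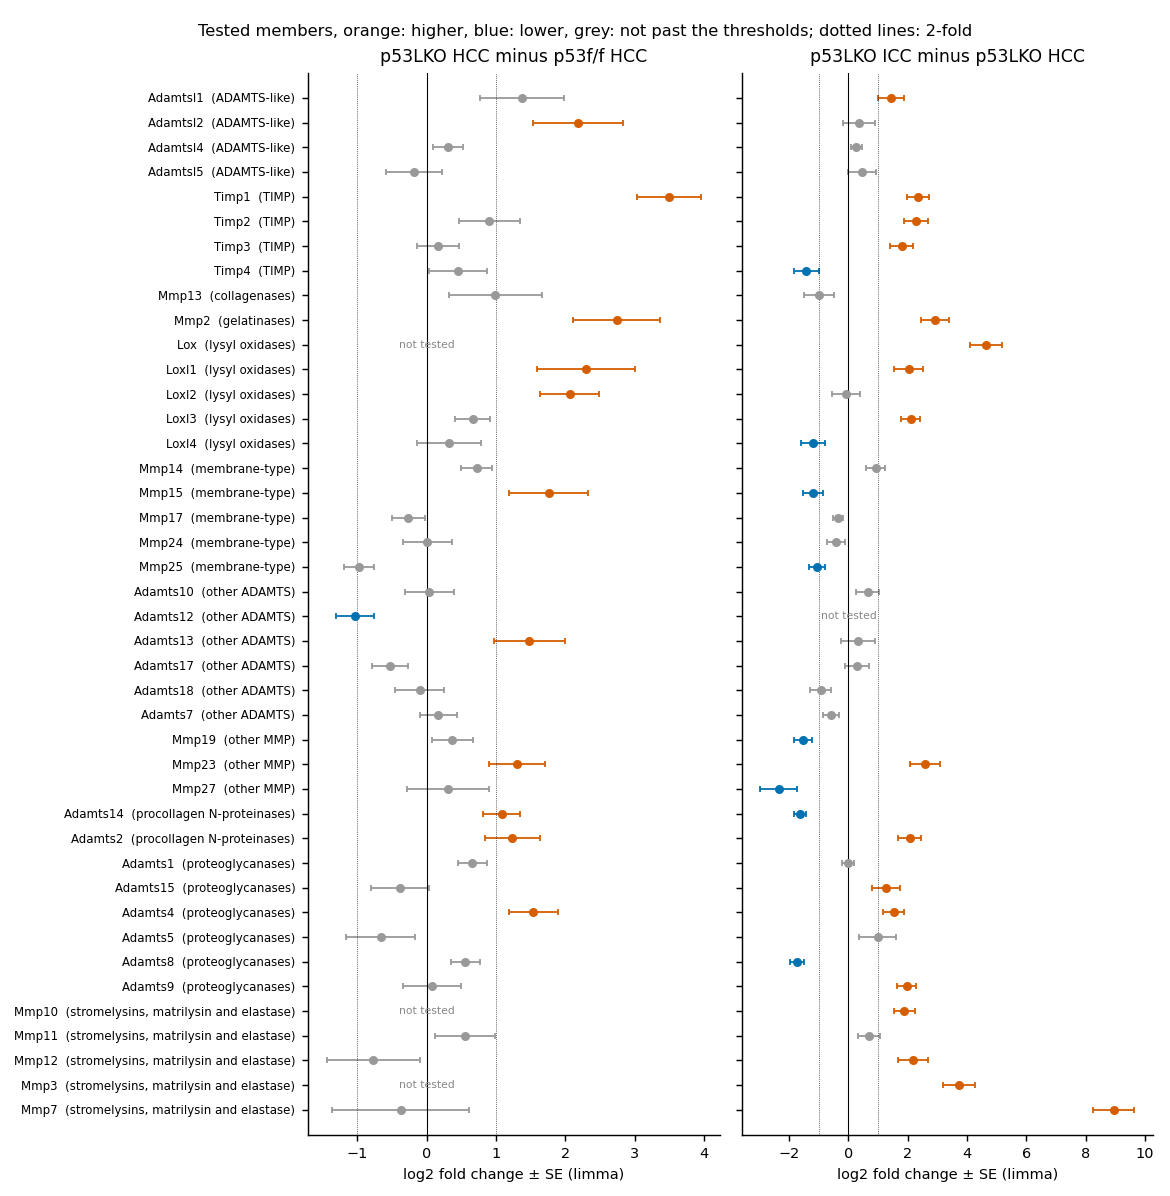
Log2 fold change with its standard error (limma, x axis) of each member gene tested in at least 1 comparison (y axis, with its role), for p53LKO HCC minus p53f/f HCC on the left and p53LKO ICC minus p53LKO HCC on the right. Timp1 with 3.50 has the highest value on the left and Mmp7 with 8.94 on the right, the x axes differ, and dotted lines mark a 2-fold difference.

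Among the inhibitors, Timp1 separated all 3 groups. Timp1 blocks most secreted metalloproteinases and is a common readout of stellate cell activation (probe at chrX:20451802-20451861, mm9). Its levels were -1.04, -0.03, 0.20, -1.26 and 0.78 in p53f/f HCC, then 2.51, 2.43, 4.09, 3.18 and 3.93 in p53LKO HCC. In ICC they were 4.96, 5.87, 6.003, 5.35 and 5.68. Every p53LKO HCC lay above every p53f/f HCC, and every ICC above every p53LKO HCC. The log2 fold change was 3.50 ± 0.46 (SE, adjusted p = 0.000307) for p53LKO against p53f/f HCC, a factor of 11.3. For ICC against p53LKO HCC it was 2.34 ± 0.36 (SE, adjusted p = 0.000633), a factor of 5.08. The exact permutation test gave 0.00794 in both comparisons, the smallest p that 5 against 5 arrays allow. Timp1 stayed past the thresholds on leaving out any 1 tumor, within slide 1 alone (3.00, 4 against 2 HCC) and within the upper rows alone (4.01), and missed them within slide 2 alone (2.96, adjusted p = 0.0612, 1 against 3 HCC).

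Timp2, which besides blocking metalloproteinases helps Mmp14 to activate pro-Mmp2, differed between the tumor types but not detectably between the HCC groups. Its levels were 1.78, 3.07, 3.29, 2.03 and 3.95 in the p53f/f HCC, 3.78, 3.49, 4.50, 2.82 and 4.05 in the p53LKO HCC and 5.10, 6.26, 6.97, 5.31 and 6.40 in ICC. The HCC groups overlapped widely, and all ICC lay above all HCC. Timp2 differed by 0.91 ± 0.44 (SE, adjusted p = 0.134) between the HCC groups and by 2.28 ± 0.40 (SE, adjusted p = 0.00137) between ICC and p53LKO HCC, both on the log2 scale. A second Timp2 probe gave 0.66 and 2.72.

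Timp3, the inhibitor that stays bound to the matrix, had the same pattern with levels of 2.44, 2.38, 2.51, 3.09 and 3.11 in the p53f/f HCC, 3.37, 2.38, 3.67, 2.20 and 2.75 in the p53LKO HCC and 4.48, 5.22, 5.42, 3.51 and 4.71 in ICC. Of the ICC tumors, 4 of 5 lay above all p53LKO HCC, and the tumor of mouse 3977 at 3.51 lay among them. The difference between the HCC groups was 0.17 ± 0.30 (SE, adjusted p = 0.703) and changed sign with the scaling and when the p53LKO HCC of mouse 3731 was left out, and ICC exceeded p53LKO HCC by 1.79 ± 0.39 (SE, adjusted p = 0.0044). Timp4, a further inhibitor of the family, went the other way. It was well above background in 4 of 5 p53LKO HCC, at -3.42 to -0.76, and in 0 of 5 ICC, so that ICC has only a bound, and Timp4 was at least 1.48-fold lower there (adjusted p = 0.0178). With the mouse as a replicate block Timp4 missed the thresholds, and with the row as a block too (-1.30, adjusted p = 0.115 in limma). Within the lower rows alone it passed (-1.30, adjusted p = 0.029 in limma).

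**Figure D2:**
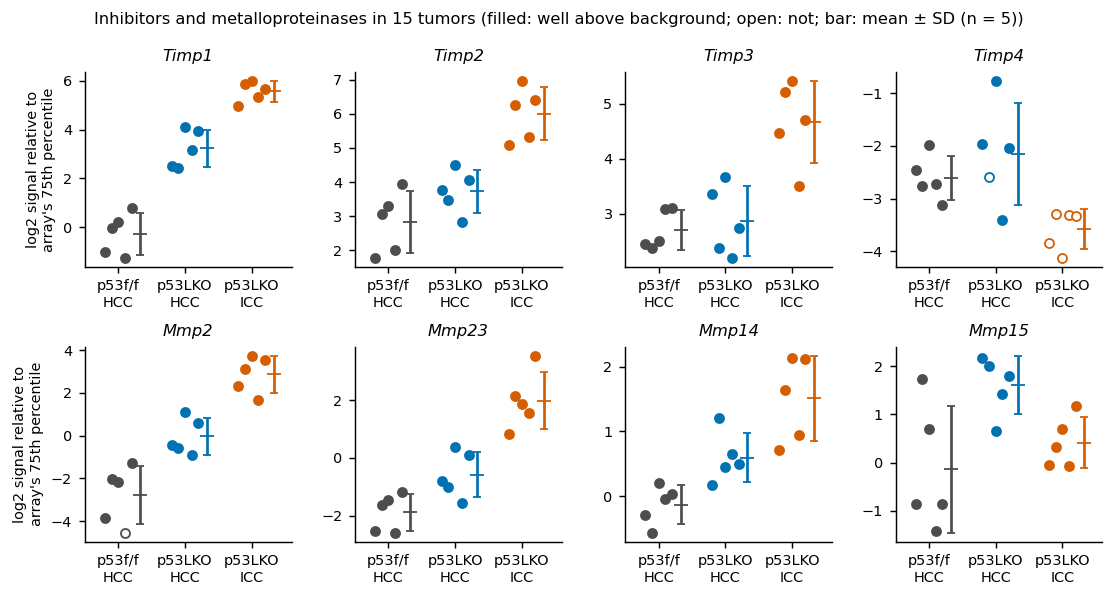
Log2 signal relative to the 75th percentile of the array (y axis) of 4 inhibitors and 4 metalloproteinases in each of the 15 tumors (x axis, groups), with open circles where the probe was not well above background and bars for mean ± SD. Timp1 and Mmp2 show 3 separate groups, whereas Timp2 and Timp3 stand apart mainly in ICC, and y axes differ between genes.

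Mmp2, gelatinase A, which cuts denatured collagen and collagen IV and is made mainly by mesenchymal cells, rose in both comparisons (probe at chr8:95376840-95376899, mm9). Its levels were -3.86, -2.01, -2.17, -4.54 and -1.27 in p53f/f HCC, where the lowest was not well above background. They were -0.41, -0.56, 1.12, -0.92 and 0.62 in p53LKO HCC and 2.32, 3.12, 3.73, 1.68 and 3.55 in ICC. The 3 groups did not overlap, and the p53f/f HCC of mice 3681 and 3717 (first tumor) were the lowest. The log2 fold change was 2.74 ± 0.63 (SE, adjusted p = 0.00743) for p53LKO against p53f/f HCC and 2.91 ± 0.48 (SE, adjusted p = 0.000958) for ICC against p53LKO HCC, factors of 6.68 and 7.51. Mmp2 stayed higher in the HCC comparison on leaving out any 1 tumor, and was 2.66 (adjusted p = 0.0667) within slide 1 alone (4 against 2 HCC) and 1.55 (adjusted p = 0.311) within slide 2 alone (1 against 3 HCC). In the ICC comparison it passed under every alternative run.

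Mmp14, the membrane-bound protease that activates pro-Mmp2 at the cell surface, differed by less than 2-fold in each comparison although both adjusted p were under 0.05. Its levels ranged over -0.57 to 0.21 in p53f/f HCC, 0.17 to 1.20 in p53LKO HCC and 0.72 to 2.13 in ICC, with neighbouring groups overlapping. The log2 fold changes were 0.72 ± 0.22 (SE, adjusted p = 0.0293) and 0.92 ± 0.31 (SE, adjusted p = 0.0347). Without the p53LKO HCC of mouse 5283 or the ICC of mouse 3731 or 3977, the second passed both thresholds (1.06 to 1.12). Mmp23, which stays anchored in membranes until it is cleaved, passed in both comparisons, with means of -1.88 ± 0.64 (SD, n = 5), -0.58 ± 0.80 (SD, n = 5) and 1.99 ± 1.00 (SD, n = 5). All ICC lay above all p53LKO HCC, and 4 of 5 p53LKO HCC exceeded all p53f/f HCC. The differences were 1.30 ± 0.41 (SE, adjusted p = 0.0316) and 2.57 ± 0.50 (SE, adjusted p = 0.00242), and the first was lost without the p53f/f HCC of mice 3681 or 3717 (first tumor) or the p53LKO HCC of mice 3731 or 3975, and within the upper rows alone.

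Mmp15, another membrane-type metalloproteinase, and Adamts14 had their highest means in p53LKO HCC. Mmp15 measured -0.87, 1.74, 0.70, -1.42 and -0.87 in p53f/f HCC, then 2.18, 2.01, 0.66, 1.43 and 1.80 in p53LKO HCC, with the p53f/f tumors of mice 3715 and 3716 reaching the p53LKO range. In ICC the levels of Mmp15 were -0.04, 0.32, 0.70, -0.08 and 1.17, overlapping with p53LKO HCC. The log2 fold change was 1.76 ± 0.57 (SE, adjusted p = 0.035) in the HCC comparison and -1.20 ± 0.33 (SE, adjusted p = 0.0133) in the ICC comparison. The first was lost without the p53f/f HCC of mice 3681, 3717 (first tumor) or 3717 (second tumor) or the p53LKO HCC of mice 3976, 5283, 3733 or 3975, within the upper rows alone, and with both tumors of mouse 3717 averaged (1.51, adjusted p = 0.0806 in limma).

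Mmp19 and Mmp25 were called in the downward direction. Mmp19, a secreted protease of basement membrane components, was lower in ICC, at -1.19, -2.52, -1.75, -2.13 and -2.69 against -0.38, -1.09, -0.82, -0.22 and -0.14 in p53LKO HCC, without overlap and with a log2 fold change of -1.53 ± 0.30 (SE, adjusted p = 0.0027). Within the lower rows alone it missed the thresholds. Mmp25, a membrane-type protease known from leukocytes, measured -2.86 to -2.19 in p53f/f HCC against -4.10 to -3.20 in p53LKO HCC, with a log2 fold change of -0.98 ± 0.21 (SE, adjusted p = 0.00556), just under 2-fold. In ICC, where 0 of 5 arrays were well above background, it was called lower with a measured mean of -4.56 against -3.50, and the background allows no fold change. That call was lost without the p53LKO HCC of mice 3976 or 3733 or the ICC of mice 3733 or 5283. In limma it was also lost with the row as a block (-0.90, adjusted p = 0.0957) and within the lower rows alone (-0.90, adjusted p = 0.149). The remaining tested membrane-type genes, Mmp17 and Mmp24, passed in neither comparison.

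A block of 10 metalloproteinase genes lies on chromosome 9, with probes between positions 7282762 and 7697700 of mm9, in the order Mmp13, Mmp12, Mmp1b, Mmp3, Mmp1a, Mmp10, Mmp8, Mmp27, Mmp20 and Mmp7. In ICC against p53LKO HCC, 4 of these genes were higher (Mmp7, Mmp3, Mmp12 and Mmp10), Mmp27 was lower, and Mmp13 passed in neither direction, where 13.2% of all genes tested were higher and 15.2% lower. Mmp3, Mmp12 and Mmp10 passed the filter on dim probes through ICC alone and Mmp27 through HCC alone, so Mmp7 is the 1 called gene of the block measured on 3 or more arrays of both groups. Mmp8, Mmp1a, Mmp1b and Mmp20 were not tested. In the HCC comparison 4 genes of the block were tested (Mmp7, Mmp12, Mmp13 and Mmp27) and 0 passed by limma, with 0 at an unadjusted p under 0.05 in limma or by the exact Mann-Whitney test.

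Promoters of several genes of this block are known to hold sites for AP-1, a dimer of Fos and Jun proteins. In the RefSeq promoters used here (GRCm38.p6, from 250 bases before to 50 after the start), 37 of the 56 member genes had an entry. Mmp2, Lox, Loxl1, Loxl2 and Loxl3 were among those without an entry. The letters TGAGTCA, searched on both strands, occurred in 7 of these 37 genes (18.9%), against 5.95% of 27025 genes with a promoter and 5.2% of all 32851 promoters. The 7 genes were Mmp7, Mmp3, Mmp10, Mmp12, Mmp13, Mmp1a and Mmp1b, all of the chromosome 9 block. Below are the 120 bases before the start of the 4 genes that were higher in ICC, of Mmp13, which holds the motif and was not called, and of Mmp27, which was lower and does not hold it in the window. A gene counts as a holder if any of its promoters holds the letters. Mmp7 and Mmp12 have 2 RefSeq starts each, and the start shown is the one whose window holds the motif, while the window of the other start does not. All 6 lie on the plus strand and run 5′ to 3′, and capitals mark the motif or its reverse complement.

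Mmp7 (chr9:7691970-7692089): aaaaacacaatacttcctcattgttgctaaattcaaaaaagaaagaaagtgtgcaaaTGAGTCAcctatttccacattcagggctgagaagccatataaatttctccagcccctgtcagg
Mmp3 (chr9:7445702-7445821): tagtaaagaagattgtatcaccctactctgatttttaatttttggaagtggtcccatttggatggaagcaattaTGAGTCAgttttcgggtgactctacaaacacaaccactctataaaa
Mmp10 (chr9:7502222-7502341): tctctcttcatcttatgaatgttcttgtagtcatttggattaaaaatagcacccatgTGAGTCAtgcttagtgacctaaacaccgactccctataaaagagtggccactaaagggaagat
Mmp12 (chr9:7347254-7347373): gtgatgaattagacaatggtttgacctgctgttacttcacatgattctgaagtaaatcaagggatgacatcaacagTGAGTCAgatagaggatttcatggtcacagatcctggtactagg
Mmp13 (chr9:7272394-7272513): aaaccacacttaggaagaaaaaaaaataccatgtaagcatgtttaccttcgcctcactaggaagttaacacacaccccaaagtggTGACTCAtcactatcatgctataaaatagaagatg
Mmp27 (chr9:7571276-7571395): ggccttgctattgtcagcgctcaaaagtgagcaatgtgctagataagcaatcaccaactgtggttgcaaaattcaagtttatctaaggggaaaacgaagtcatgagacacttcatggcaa

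The first base of the motif lies 63 bases before the start in Mmp7 and in Mmp10, 46 in Mmp3, 44 in Mmp12 and 35 in Mmp13. The share of members holding TATAAA on either strand was 32.4% against 15.7% of all genes with a promoter, and 9 of its 12 holders lie in the block. The letters GGGCGG were in 62.2% of the members against 38.2% of all genes, and 0 of their 23 holders lie in it. Among these holders are Timp1, Timp2, Timp3 and Mmp14. These are matches of letters and not binding sites.

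Mmp7, matrilysin, a small epithelial metalloproteinase without the hemopexin domain of its relatives, had the largest fold change of all members tested in either comparison (probe at chr9:7697641-7697700, mm9). Its levels were -3.36, -2.85, -1.10, -3.86 and 0.68 in p53f/f HCC, then 0.28, -2.71, -2.13, -3.44 and -4.37 in p53LKO HCC. In ICC they were 5.90, 6.85, 6.23, 6.72 and 6.63. The lowest ICC lay 5.22 log2 units above the highest HCC, and the HCC groups overlapped. The log2 fold change of ICC against p53LKO HCC was 8.94 ± 0.70 (SE, adjusted p = 1.77e-05), a factor of 492. On leaving out 1 tumor it lay between 8.47 and 9.63, the highest without the p53LKO HCC of mouse 3976, and Mmp7 passed in this comparison under every alternative run. Between the HCC groups the log2 fold change was -0.38 ± 0.99 (SE, adjusted p = 0.796), and it was above 0 with some scalings and without the second tumor of mouse 3717 (0.32) or the p53LKO HCC of mouse 3975 (0.10).

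Mmp3 (stromelysin 1), Mmp10 (stromelysin 2) and Mmp12 (the elastase of macrophages) were dimmer. Mmp3 measured -2.24, -0.93, -1.70, -0.90 and -1.06 in ICC, with 4 of 5 arrays well above background, against -4.26, -4.17, -4.27, -6.95 and -5.81 in p53LKO HCC, with 1 of 5. All ICC lay above all HCC of both genotypes. The difference was 3.73 ± 0.54 (SE, adjusted p = 0.000471), and with HCC arrays raised to the lowest signal well above background Mmp3 was at least 6.77-fold higher. Mmp10 measured -2.05, -3.48, -2.55, -2.13 and -3.48 in ICC and -5.19, -4.14, -4.10, -4.51 and -5.14 in p53LKO HCC, without overlap, and differed by 1.88 ± 0.36 (SE, adjusted p = 0.00207). Only 3 of 5 ICC and 2 of 5 p53LKO HCC were well above background for it, and the bound for Mmp10 was at least 2.40-fold. Mmp12 measured -1.46, -1.39, -2.35, -1.03 and -1.72 in ICC and -4.90, -2.18, -3.11, -3.62 and -4.97 in p53LKO HCC, where 2 of 5 arrays were well above background. The HCC of mouse 5283 overlapped with ICC, but its value lay below -2.13, the lowest signal well above background on its array. Mmp12 differed by 2.17 ± 0.51 (SE, adjusted p = 0.00629). The bound for Mmp12 was at least 4.04-fold. Within the lower rows alone and with the row as a block Mmp12 missed the thresholds. Between the HCC groups Mmp12 differed by -0.77 ± 0.67 (SE, adjusted p = 0.401).

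Mmp13, the main interstitial collagenase of rodents, had group means of -1.52 ± 1.34 (SD, n = 5), -0.53 ± 1.10 (SD, n = 5) and -1.52 ± 0.61 (SD, n = 5), and all 3 groups overlapped. The differences were 0.99 ± 0.67 (SE, adjusted p = 0.279) for p53LKO against p53f/f HCC and -0.996 ± 0.49 (SE, adjusted p = 0.122) for ICC against p53LKO HCC. Mmp27 was present on all HCC arrays and measured -4.47, -3.38, -3.74, -1.57 and -3.14 in ICC, where only the tumor of mouse 3977 was well above background, against -0.01, -0.97, -0.11, -0.53 and -2.90 in p53LKO HCC. The measured log2 fold change was -2.36 ± 0.62 (SE, adjusted p = 0.0111), and with the ICC arrays raised to the lowest signal well above background Mmp27 was at least 3.00-fold lower.

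**Figure D3:**
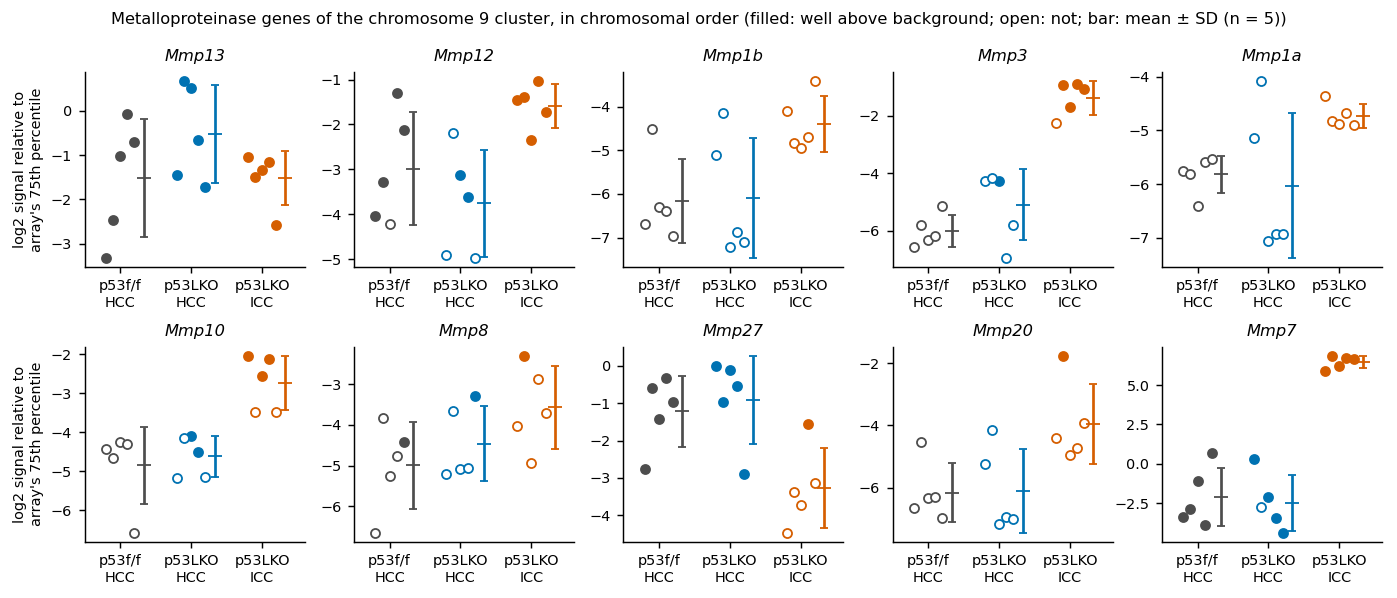
Log2 signal relative to the 75th percentile of the array (y axis) of the 10 metalloproteinase genes of the chromosome 9 block, in chromosomal order, in the 15 tumors (x axis, groups), with open circles where the probe was not well above background and bars for mean ± SD. Mmp7 stands at 5.90 to 6.85 in ICC and at most at 0.68 in HCC, Mmp27 falls in ICC, and most circles of Mmp1a, Mmp1b, Mmp8 and Mmp20 are open.

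The lysyl oxidases split between the comparisons. Loxl2, which oxidizes collagen IV as well as fibrillar collagen, was higher in p53LKO than in p53f/f HCC (probe at chr14:70095254-70095313, mm9). Its levels were -0.21, 0.37, 1.23, 0.13 and 0.07 in p53f/f HCC, then 1.38, 1.54, 2.89, 3.54 and 2.58 in p53LKO HCC, without overlap, and 1.65, 2.12, 3.44, 1.61 and 2.73 in ICC. The ICC lay within the range of the p53LKO HCC. The log2 fold change was 2.07 ± 0.43 (SE, adjusted p = 0.00422) between the HCC groups, and the other Loxl2 probes gave 1.16 and 1.90, both also past the thresholds. Between ICC and p53LKO HCC it was -0.07 ± 0.47 (SE, adjusted p = 0.912) and 0.85 with the row as a block, and its sign changed between alternatives. The HCC difference passed on leaving out any 1 tumor and within the upper rows alone (2.68, adjusted p = 0.000906), and was 1.08 (adjusted p = 0.152) with the 4 against 2 HCC of slide 1 and 2.94 (adjusted p = 0.0621) with the 1 against 3 of slide 2.

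Loxl1, the family member needed for elastic fibers, was higher in each comparison. It measured -3.51, -1.24, -1.19, -4.09 and -0.59 in the p53f/f HCC, 0.004, -0.06, 1.38, -1.13 and 0.72 in the p53LKO HCC and 1.75, 2.09, 3.31, 1.39 and 2.49 in ICC. All ICC lay above all p53LKO HCC, and 4 of 5 p53LKO HCC lay above all p53f/f HCC. The differences were 2.30 ± 0.71 (SE, adjusted p = 0.0288) and 2.02 ± 0.47 (SE, adjusted p = 0.00619). The first was lost without the p53f/f HCC of mice 3681 or 3717 (first tumor) or the p53LKO HCC of mice 3731 or 3975, and within the upper rows alone, and a second probe gave 1.26 with an adjusted p of 0.0627.

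Lox, the founding enzyme of the family and a cross-linker of collagen and elastin (probe at chr18:52676912-52676971, mm9), was seen mainly in ICC. It measured -0.40, -0.45, 0.09, -0.87 and -0.37 there, all well above background. It was well above background on 1 of 5 arrays in each HCC group, at -6.82 to -3.49 in p53f/f HCC against -7.08 to -3.49 in p53LKO HCC. All ICC lay above all HCC, and the measured difference from p53LKO HCC was 4.64 ± 0.54 (SE, adjusted p = 0.000151). With the HCC arrays raised to the lowest signal well above background, Lox was at least 11.5-fold higher in ICC. The second Lox probe, with 2 of 5 p53LKO HCC arrays well above background, was at least 3.50-fold higher, and Lox passed under every alternative run. Since so few HCC arrays measured it, Lox was not tested between the HCC groups.

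Loxl3 measured -0.55, 0.50, 1.39, 0.12 and 0.98 in ICC and -1.88 to -1.14 in p53LKO HCC. All ICC lay above all HCC, and Loxl3 was higher by 2.10 ± 0.33 (SE, adjusted p = 0.000763). Between the HCC groups it differed by 0.66 ± 0.25 (SE, adjusted p = 0.0672). Loxl4 went the opposite way, at -1.68, -1.13, -0.84, -1.68 and -1.24 in ICC and -1.51, -0.45, -0.13, 0.46 and 0.995 in p53LKO HCC, overlapping, with a log2 fold change of -1.19 ± 0.41 (SE, adjusted p = 0.0348). That call was lost without the p53LKO HCC of mice 3731, 3733 or 3975 or the ICC of mice 3731, 3733 or 3977, and within the lower rows alone, and the second Loxl4 probe gave -0.82 with an adjusted p of 0.177.

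Of the procollagen N-proteinases, which trim the amino-terminal propeptide of newly made fibrillar collagen, Adamts2 and Adamts14 were tested and Adamts3 was at background on all 15 arrays. Adamts2, the main enzyme for procollagen I, measured 0.35, 1.38, 1.44, 0.84 and 1.96 in the p53f/f HCC, 2.43, 2.13, 3.74, 1.77 and 2.08 in the p53LKO HCC and 3.89, 4.58, 5.19, 3.93 and 4.88 in ICC. All ICC lay above all HCC, and 4 of 5 p53LKO HCC lay above all p53f/f HCC. The differences were 1.23 ± 0.40 (SE, adjusted p = 0.0344) and 2.06 ± 0.39 (SE, adjusted p = 0.00192). The first was lost without the p53f/f HCC of mice 3681 or 3717 (first tumor) or the p53LKO HCC of mice 3976 or 3731, and within the upper rows alone, and a dimmer second probe gave 0.80 and 0.97, neither of which passed.

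Adamts14 was higher in p53LKO than in p53f/f HCC and lower in ICC than in p53LKO HCC. It measured 1.39, 0.34, 0.70, 1.75 and 1.10 in the p53f/f HCC, 1.69, 2.11, 2.25, 2.51 and 2.13 in the p53LKO HCC and 0.43, 0.47, 0.75, 0.09 and 0.80 in ICC, and ICC did not overlap with p53LKO HCC. The log2 fold changes were 1.08 ± 0.27 (SE, adjusted p = 0.0111) and -1.63 ± 0.20 (SE, adjusted p = 0.000199), the first of which was lost without the p53f/f HCC of mice 3715 or 3716 or the p53LKO HCC of mouse 3733. Its second probe, with a mean of -4.17 in p53LKO HCC, gave -0.74 (adjusted p = 0.0114) in the HCC comparison, and no ICC array was well above background for it, so the probes disagree in sign between the HCC groups.

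Of the proteoglycanases, Adamts4, an aggrecanase that also cuts versican, rose in both comparisons (probe at chr1:173189952-173190011, mm9). It measured -3.28, -3.17, -2.30, -2.17 and -2.62 in the p53f/f HCC, -1.34, -1.60, 0.07, -1.40 and -1.60 in the p53LKO HCC and 0.33, 0.57, 1.10, -0.31 and 0.06 in ICC. All p53LKO HCC lay above all p53f/f HCC, and the p53LKO HCC of mouse 3731 stood at 0.07, within the ICC range. The differences were 1.54 ± 0.35 (SE, adjusted p = 0.00742) and 1.52 ± 0.36 (SE, adjusted p = 0.0064), and both passed on leaving out any 1 tumor. Adamts9, which cuts versican and aggrecan, passed in the ICC comparison. It measured 0.29, 0.57, 0.36, 0.18 and -0.05 in ICC against -1.26, -2.19, -0.72, -2.52 and -1.77 in p53LKO HCC without overlap, a difference of 1.96 ± 0.31 (SE, adjusted p = 0.000807), and differed by 0.08 ± 0.42 (SE, adjusted p = 0.904) between the HCC groups.

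Adamts1, a versican-cutting protease, had a log2 fold change of 0.66 ± 0.21 (SE, adjusted p = 0.033) between the HCC groups, under 2-fold, and of -0.02 ± 0.19 (SE, adjusted p = 0.935) between ICC and p53LKO HCC. Adamts15 was higher in ICC by 1.26 ± 0.47 (SE, adjusted p = 0.0484), a call lost without the p53LKO HCC of mice 3976, 5283, 3731 or 3975 or the ICC of mice 3731, 3733, 3976 or 3977. In limma it was also lost with the slide (adjusted p = 0.0647), the row (0.0627) or the mouse (0.065) as a block. The same held within the lower rows alone (0.102). Adamts8 was lower in ICC by its brighter probe, at -2.83, -1.91, -1.83, -1.71 and -1.79 against -0.40, 0.08, -0.59, -0.21 and -0.33 in p53LKO HCC, without overlap and with a log2 fold change of -1.73 ± 0.23 (SE, adjusted p = 0.000341). The other Adamts8 probe, well above background on 3 of 5 ICC and 1 of 5 p53LKO HCC arrays, was called higher in ICC (adjusted p = 0.00163). The probes of Adamts8 thus disagree in the direction of their calls. With HCC arrays raised to the lowest signal well above background, the ratio of this other probe was 3.33-fold. Its ICC mean of -2.46 lay near the lowest signals well above background there (-2.89 to -2.37), so the ratio is no strict lower bound. Adamts5, another aggrecanase, passed in neither comparison.

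**Figure D4:**
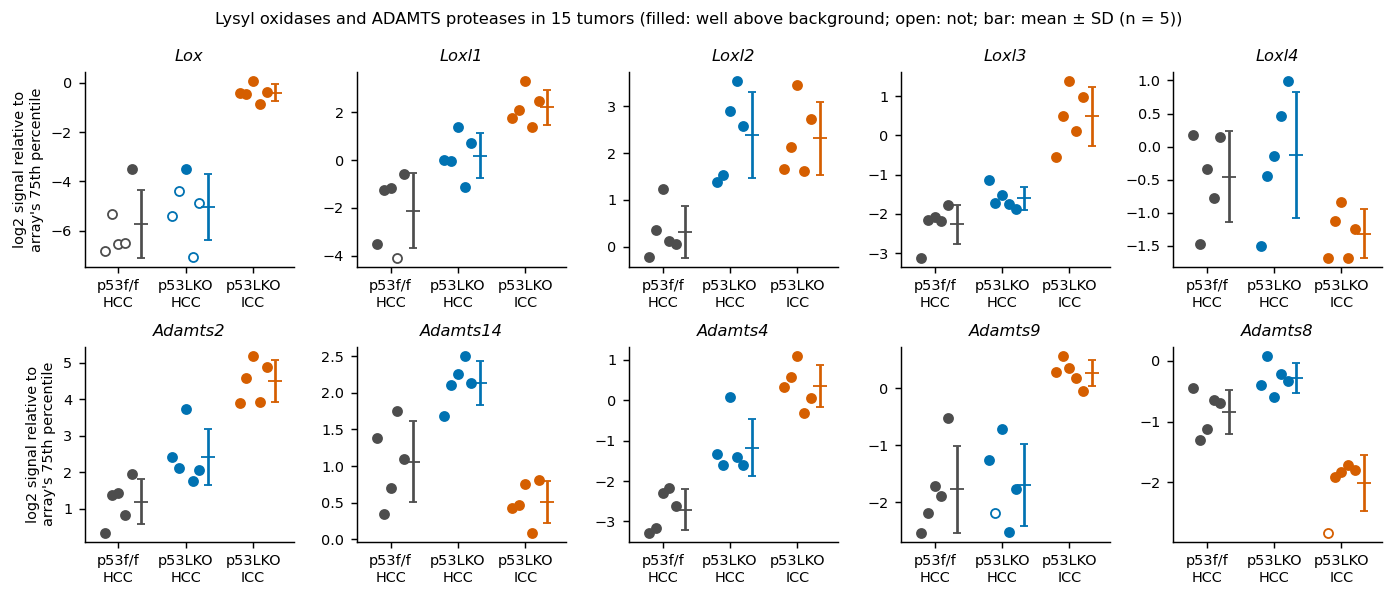
Log2 signal relative to the 75th percentile of the array (y axis) of the 5 lysyl oxidases and 5 Adamts genes in the 15 tumors (x axis, groups), with open circles where the probe was not well above background and bars for mean ± SD. Loxl2 is as high in p53LKO HCC as in ICC, Lox and Loxl3 stand apart in ICC, and Adamts14 is highest in p53LKO HCC.

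Of the other Adamts genes, Adamts13, the protease of von Willebrand factor and in liver a product of stellate cells, was higher in p53LKO than in p53f/f HCC. It measured -2.51, -1.72, -3.28, -2.34 and -2.84 in p53f/f HCC, then -1.80, -2.67, -0.14, -0.87 and 0.20 in p53LKO HCC, where the tumors of mice 3976 and 5283 lay within the p53f/f range. The value of mouse 5283 lay below -2.13, the lowest signal well above background on its array. The difference was 1.48 ± 0.52 (SE, adjusted p = 0.048), close to the threshold and lost without the p53f/f HCC of mice 3681, 3716, 3717 (first tumor) or 3717 (second tumor) or the p53LKO HCC of mice 3731, 3733 or 3975. It was 1.07 (adjusted p = 0.138 in limma) with the slide as a block, 0.23 (adjusted p = 0.795) with the 4 against 2 HCC of slide 1, 2.57 (adjusted p = 0.0719) with the 1 against 3 of slide 2 and 1.47 (adjusted p = 0.0847) with both tumors of mouse 3717 averaged. Between ICC and p53LKO HCC it was 0.31 ± 0.56 (SE, adjusted p = 0.673). Adamts12 was the 1 member called lower in p53LKO HCC, with a measured log2 fold change of -1.03 ± 0.27 (SE, adjusted p = 0.0147). Since 4 of 5 p53f/f HCC but 1 of 5 p53LKO HCC arrays were well above background, most of its p53LKO values are at background, and the bound was at least 1.30-fold, under the 2-fold limit. The call was lost with both tumors of mouse 3717 averaged, with the slide as a block, with quantile normalization and on leaving out the p53f/f HCC of mouse 3717 (second tumor) or the p53LKO HCC of mice 3733 or 3975. In the ICC comparison the 5 tested genes of this class had 0 calls by limma, and 1 of them had an unadjusted p under 0.05 in limma and 1 by the exact Mann-Whitney test.

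The Adamts-like proteins resemble the ancillary domains of Adamts enzymes but have no protease domain. Adamtsl2, which binds the latent TGF-beta binding protein and fibrillin, measured -3.16, -1.03, -2.003, -3.56 and -0.51 in p53f/f HCC, then 0.51, -0.17, 1.17, -1.47 and 0.63 in p53LKO HCC. The tumor of mouse 3733 at -1.47 overlapped with p53f/f HCC, and the other 4 lay above them. The difference was 2.19 ± 0.65 (SE, adjusted p = 0.0244), and 0.36 ± 0.55 (SE, adjusted p = 0.62) between ICC and p53LKO HCC. The first was lost without the p53f/f HCC of mice 3681 or 3717 (first tumor) or the p53LKO HCC of mice 3976, 3731 or 3975, and within the upper rows alone. Adamtsl1 was higher in ICC by 1.43 ± 0.44 (SE, adjusted p = 0.0212) with overlapping groups, a call lost without the p53LKO HCC of mouse 3733 or the ICC of mouse 3733, and Adamtsl4 and Adamtsl5 passed in neither comparison.

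For the members called higher in each comparison, which share the p53LKO HCC arrays, the values stand side by side. Their log2 fold changes, first p53LKO against p53f/f HCC and then ICC against p53LKO HCC, were 3.50 and 2.34 for Timp1, 2.74 and 2.91 for Mmp2, 2.30 and 2.02 for Loxl1. For Adamts4 they were 1.54 and 1.52, for Mmp23 1.30 and 2.57, and for Adamts2 1.23 and 2.06. Adamts14 and Mmp15 were higher in the first and lower in the second. Loxl2, Adamts13 and Adamtsl2 passed only in the HCC comparison, and whether their 2 differences themselves differ was not tested.

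**Figure D5:**
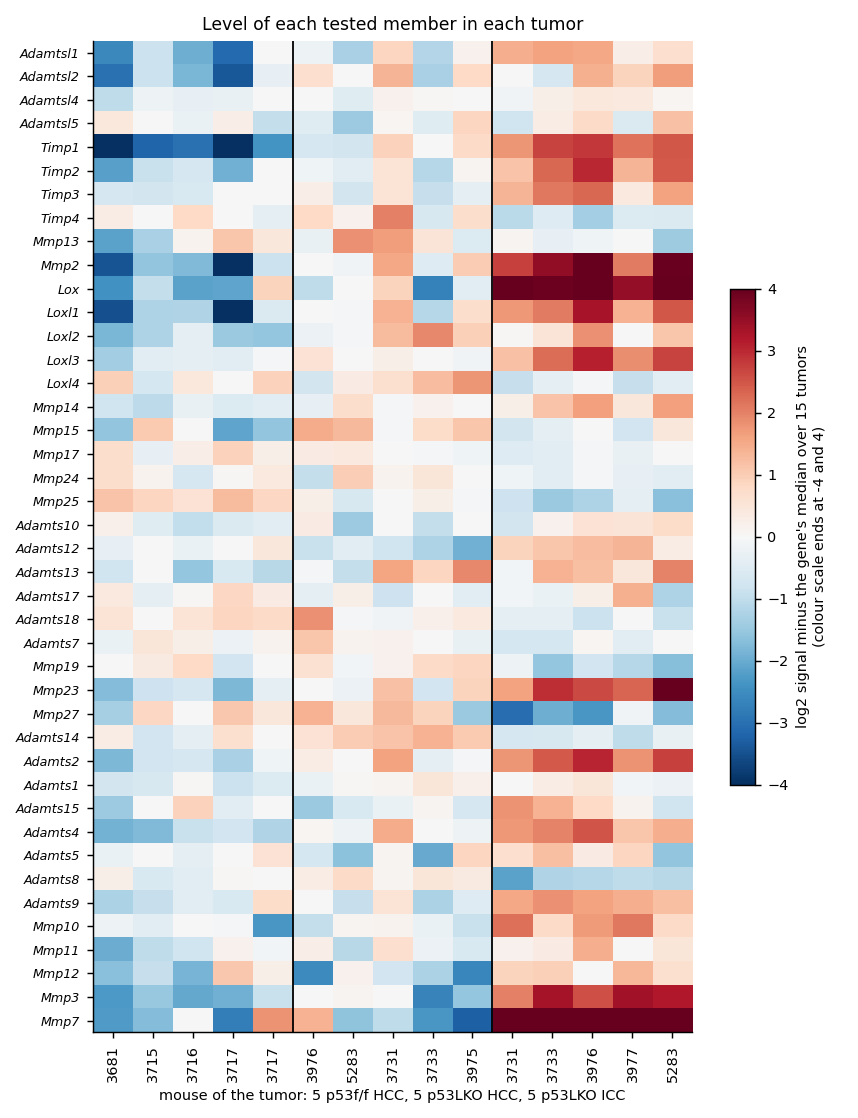
Log2 signal of each member gene tested in at least 1 comparison (rows) in each of the 15 tumors (columns, by mouse), minus the median of the gene over the 15 tumors, with black lines between the groups. Timp1, Mmp2, Loxl1 and Adamts2 turn from blue to red from left to right, and within p53f/f HCC the tumors of mouse 3681 and mouse 3717 (first column of 2) are the lowest for these genes.

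The p53f/f HCC were not uniform. For 10 of the 42 member genes tested in at least 1 comparison (Timp1, Timp2, Mmp2, Mmp7, Mmp23, Loxl1, Loxl3, Adamts2, Adamtsl1 and Adamtsl2), the tumor of mouse 3681 and the first tumor of mouse 3717 were the lowest among them and the second tumor of mouse 3717 was the highest. These are 23.8% of the tested members, and the same order held for 418 of all 18042 genes tested (2.32%). The order was first noticed in the values of the members, so these shares are no test of it. The second tumor of mouse 3717 is also the only p53f/f HCC on slide 2, so that tumor and slide cannot be told apart here. The 2 tumors of mouse 3717 differed by 3.27 for Mmp2 and 3.50 for Loxl1 on the log2 scale. These are values of single tumors and were not tested.

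Partners of these proteins in matrix turnover were followed as 3 lists. Of 7 tested genes of the plasminogen system, which activates several pro-metalloproteinases, Plat and Plaur were higher in p53LKO than in p53f/f HCC, by 3.02 ± 0.67 (SE, adjusted p = 0.00631) and 1.35 ± 0.29 (SE, adjusted p = 0.00533). In ICC, Plau was higher by 1.72 ± 0.43 (SE, adjusted p = 0.00845) and Plaur by 1.58 ± 0.27 (SE, adjusted p = 0.00119). Plg, the plasminogen gene itself, and Serpinf2, the gene of its plasma inhibitor, both products of hepatocytes, were lower in ICC, with log2 fold changes of -2.18 and -2.06. The median over this list was 0.04 in the HCC comparison and -0.09 in the ICC comparison.

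Of 14 tested genes for other inhibitors, activators and proteases, Pcolce, which enhances removal of the carboxy-terminal propeptide of procollagen, was higher in p53LKO HCC by 2.66 ± 0.72 (SE, adjusted p = 0.0162). Lcn2, whose product binds Mmp9, was higher by 1.34, and Reck, a membrane-anchored inhibitor of metalloproteinases, was lower with -1.30 ± 0.26 (SE, adjusted p = 0.00362). In ICC, Pcolce2 was higher by 4.02 ± 0.45 (SE, adjusted p = 0.000127), and Ctsk and Ctss, genes of matrix-degrading cathepsins, by 2.56 and 1.29. Pcolce and Lcn2 were lower there, with log2 fold changes of -1.90 and -2.76. Spock1 was also called lower, but 0 of 5 ICC arrays were well above background for it, and the background allows no fold change. The median over this list was 0.22 in the HCC comparison and -0.61 in the ICC comparison.

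Of 16 tested substrate genes, 1 was called between the HCC groups, Col4a1, a chain of the collagen of basement membranes, which was higher by 1.11 ± 0.32 (SE, adjusted p = 0.022). The fibrillar collagen genes Col1a1, Col1a2 and Col3a1 differed there by 1.37 ± 0.59 (SE, adjusted p = 0.0998), 1.04 ± 0.54 (SE, adjusted p = 0.164) and 0.83 ± 0.53 (SE, adjusted p = 0.251), none past the thresholds. In ICC, 8 substrates were higher, among them Col1a1 by 2.63 ± 0.43 (SE, adjusted p = 0.000916), Col1a2 by 2.74, Col3a1 by 2.78 and elastin (Eln) by 3.26 ± 0.65 (SE, adjusted p = 0.00272). Nid1, nidogen of the basement membrane, was lower, with a log2 fold change of -1.10. The median over the substrates was 0.63 in the HCC comparison and 1.33 in the ICC comparison.

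Some markers of the cells that make these proteins also moved between the groups. Of 8 markers of stellate cells and fibroblasts, Lum and Pdgfra were higher in p53LKO than in p53f/f HCC, by 1.69 and 1.13, and Lum, Thy1 and Pdgfrb were higher in ICC than in p53LKO HCC, by 2.37, 1.91 and 1.25. The others passed in neither comparison, and of these Acta2 had log2 fold changes of -0.52 and 1.23, Tagln -0.09 and 0.27, Des 0.92 and -0.39 (with 1 of 5 ICC arrays well above background), and Lrat 0.52 and -1.22. Their mean log2 level ranged from -0.43 to 0.84 in p53f/f HCC, 0.17 to 2.04 in p53LKO HCC and 1.38 to 2.34 in ICC, and their summed linear level from 17.9 to 33.9, 18.5 to 65.4 and 63.1 to 120.6. Of the neutrophil markers, S100a8 and S100a9 were higher and Csf3r lower in p53LKO than in p53f/f HCC, and Elane was lower in ICC than in p53LKO HCC. Cxcr2 was also called lower there, with 0 of 5 ICC arrays well above background and a bound of at least 1.08-fold. Their summed level ranged from 287.3 to 382.2, 133.1 to 177.7 and 128.4 to 364.3 in the 3 groups. The Csf3r probe, with mean log2 levels of 8.26, 6.71 and 7.68, was the largest part of this sum, and Ly6g, a defining marker of neutrophils, was not analysed here because no probe carried that symbol. Of the 6 endothelial markers, Stab2 and Tek were lower in p53LKO than in p53f/f HCC. Pecam1 (-0.15), Cdh5 (-0.18), Kdr (0.14) and Lyve1 (-0.33) did not pass there. Between ICC and p53LKO HCC limma called 0 of the 6, with Kdr at -0.94 (adjusted p = 0.00693), under 2-fold. Of the 5 tested macrophage markers 0 were called by limma in either comparison (1 in each had an unadjusted p under 0.05, and 0 by the exact Mann-Whitney test), with Cd163 at background throughout. The part of these cells in the differences of the member genes was not tested.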

How the data were processed

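RNA of 15 tumors with RIN values above 8 was labelled with a single dye by the authors and hybridised to SurePrint mouse arrays. The authors deposited scanner output of Agilent Feature Extraction 10.7.3.1, in which the processed signal is an intensity after background subtraction, and a table of log2 values. That deposited log2 table was rebuilt from the scanner values, is centred on different arrays for HCC and ICC, and served as an alternative for the HCC comparison alone. Groups and mice came from the labels.

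Spots of the same probe were averaged after taking log2 of their processed signals, without 127 to 224 spots per array that the software marked as outliers, and the 75th percentile over non-control probes was subtracted. Each comparison of 5 against 5 arrays was fitted with limma 3.58.1 in R 4.3.3 over all probes tested (36086 and 32670), with Benjamini-Hochberg adjustment. Figures were drawn with matplotlib 3.10.9 in Python 3.11.15. Single genes also have a 2-sided exact permutation test. Probe positions are those of mm9 in the file headers, and promoters those of RefSeq. Where a whole group was at background, a bound replaced the fold change: the other group's mean against the lowest signal well above background on each array. Where 1 or 2 of 5 arrays of a group were above it, the bound stands beside the measured value and takes an array's own signal where that is higher. The other group always entered with its measured signals. Where some of its arrays were not well above background, the bound is therefore not strict. Arrays have no read depth, 0 probes were saturated, and 5 tumors a group and the signal over background limit the precision. Where 1 mouse gave several tumors, p-values treat them as separate samples.

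Members, roles, partner and marker lists were chosen with earlier results of these data known. A gene of the biliary marker list is not reported here. Named were members past the thresholds, up to the 15 with the largest change per comparison, and Mmp2, Mmp9, Mmp14, Mmp7, Mmp12, Mmp13, Timp1 to Timp3, Adamts1, Adamts2, Adamts13, Lox, Loxl1 and Loxl2. Mmp19, Mmp25, Timp4, Loxl4, Adamts8, Adamts15, Adamtsl1 and genes named only as not passing or not tested were named after their values were seen.

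Alternatives were other background corrections, scalings, filters, models, tests, thresholds, choices of probe, slide, row and mouse as blocks, and leaving out each tumor. Whether the mouse numbers pair HCC and ICC was checked by correlating deviations from the group means, which gave -0.14 to 0.07 for 4 same-mouse pairs and -0.26 to 0.28 for 21 others, so the pairing rests on the mouse numbers. The fit was tested on simulated data. In the HCC comparison (36031 probes) it recovered 56 of 100 probes changed by 1.5 and 94 of 100 changed by 3 on the log2 scale, with 8 false calls. In the ICC comparison (32644 probes) it recovered 60 and 92, with 7 false calls.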

Additional observations from a re-analysis of the deposited data

Results flagged for a closer look

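Of 96 groups of 5 tumors tested over 32 named member genes, 3 held a tumor that stood apart from the other 4 by Dixon's ratio at the 95% level, where chance alone flags about 1 in 20. Adamts4 measured 0.07 in the p53LKO HCC of mouse 3731, against -1.60 to -1.34 in the other 4. Adamts8 measured -2.83 in the ICC of mouse 3731, where its probe was not well above background, against -1.91 to -1.71. Mmp10 measured -6.59 in the second p53f/f HCC of mouse 3717, against -4.67 to -4.25, and none of these 5 arrays was well above background for it.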

How the results depend on the processing

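Of 638 recomputed values of 19 named genes in the HCC comparison, 499 kept their direction and side of the thresholds, and of 973 values of 30 genes in the ICC comparison 840 did. The count of higher members in the HCC comparison (11) was 7 with scaling to the 75th percentile or to the median of probes well above background on all arrays, 21 with the spike-in probes, 6 without a filter, 5 with the slide as a block, 7 with the row as a block, 1 in slide 1 alone, 0 in slide 2 alone (1 against 3 tumors), 6 in the upper rows alone, 5 by the methods' t-test after adjustment, 4 by the Mann-Whitney test, 4 at an adjusted p under 0.01, and 5 to 10 on leaving out 1 tumor. The count of lower members (1) was 0 with normexp, quantile normalization, spike-in scaling, both stricter filters, slide 1 or slide 2 alone, an adjusted p under 0.01 or both tumors of mouse 3717 as 1 sample, 2 with both other scalings or no fold limit, and 0 to 2 on leaving out 1 tumor.

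In the ICC comparison the count of higher members (17) was 10 when both groups had to be well above background throughout, 3 in slide 1 alone (2 against 1 tumors), and 15 to 18 on leaving out 1 tumor. The count of lower members (8) was 4 with normexp, 4 with the 75th percentile and 5 with the median of probes well above background, 4 when both groups had to be well above background, 1 in slide 1 alone, 5 in slide 2 alone, 5 by the Mann-Whitney test, 3 at an adjusted p under 0.01, 5 in the lower rows alone, and 6 to 9 on leaving out 1 tumor. With the mouse as a replicate block the pairing gave 16 higher and 6 lower members, losing Adamts15, Loxl4 and Timp4. The cause of these shifts was not tested, apart from the smaller numbers of tumors or probes in some of them.

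Some genes that were not called changed sign. In the HCC comparison Mmp7 was 0.08 with quantile normalization, 0.36 with spike-in scaling, 1.58 in slide 1 alone (-3.99 in slide 2 alone, 1 against 3 tumors), and -1.06 to 0.32 on leaving out 1 tumor. Timp2 was -0.16 in slide 2 alone. Timp3 was -0.06 with quantile normalization, -0.08 and -0.02 with scaling to the 75th percentile and median of probes well above background, -0.24 in slide 2 alone, and -0.03 to 0.33 on leaving out 1 tumor. In the ICC comparison Adamts1 was 0.18, 0.35 and 0.18 with these 3 scalings, 0.19 with the row as a block and in the lower rows alone, 0.10 in slide 1 alone, 0.05 with the replicate block, and -0.12 to 0.07 on leaving out 1 tumor. Loxl2 was 0.19, 0.30 and 0.13, then 0.85, 0.85, 0.20 and 0.15 under the same settings, and -0.36 to 0.22 on leaving out 1 tumor. Adamts13 was -0.03 with the slide as a block, -0.20 in slide 2 alone and -0.09 to 0.63 on leaving out 1 tumor. The authors' table was not run for ICC. Genes dim in HCC, such as Mmp3, Mmp10 and Lox, are limited by signal over background.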
